A study of Homo sapiens with 17 samples.

Results

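The genes described here are 46 genes of DNA repair and damage signalling, taken by their symbols from a table of 23368 genes and followed in all 6 groups of the study. The list was set by symbol and not by a rule on measured values. Earlier results of these data were known when it was chosen. They were ordered by role: 8 genes of end joining, 3 of single-strand break repair, 4 damage kinases, 3 of the MRN complex, 9 of homologous recombination, 2 RecQ helicases, 9 Fanconi anaemia genes, 2 of mismatch repair and 6 of nucleotide excision repair.

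The study asked how the RNA-binding protein TDP43, encoded by TARDBP, bears on N4-acetylcytidine (ac4C), an acetylated base in mRNA. Polyadenylated RNA was taken from HEK293T, a line of human embryonic kidney that carries the SV40 large T antigen, and sequenced as input, after pull-down with an anti-ac4C antibody (IP), and after pull-down with control rabbit immunoglobulin (IgG). Cells labelled WT gave 3 input, 3 IP and 2 IgG libraries, and cells labelled siTARDBP, called siTDP43 here, gave 3 of each. All came from this single line. The labels give no control siRNA for the WT libraries. The methods speak of independent samples for most experiments without naming these libraries, and the labels do not say that the libraries of a group came from separate cultures, so the p-values measure the spread between these libraries, which may be technical. Genotype and any difference in handling between the WT and siTDP43 libraries cannot be told apart.

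Broken DNA ends are rejoined by end joining, in which the Ku heterodimer XRCC5 and XRCC6 binds the ends, the kinase PRKDC is recruited, DCLRE1C trims, and LIG4 seals together with XRCC4 and NHEJ1. TP53BP1 holds ends back from resection, the first step of homologous recombination. The kinases ATM and ATR signal damage through CHEK2 and CHEK1, the MRN complex senses breaks, the Fanconi genes deal with crosslinks between strands, and the excision and mismatch pathways remove damaged or misplaced bases. TDP43 is known to take part in end joining with XRCC4 and LIG4, and to bind UG-rich RNA.

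Depth differed between groups. Among WT libraries the inputs held 27718784 to 36583436 counts, the IP libraries 19615316 to 21066215 and the IgG libraries 9022250 to 9466855. Among siTDP43 libraries the inputs held 24542434 to 31030950, the IP libraries 8610070 to 15736165 and the IgG libraries 3013989 to 3436811. In siTDP43 IgG 1 count was worth 0.356 to 0.405 CPM, against 0.0255 to 0.0332 CPM in WT input (CPM, the count scaled to a common library size after TMM over the 17 libraries). The repair genes took 0.413 to 0.420% of all counts in WT input and 0.605 to 0.620% in siTDP43 input. They took 0.390 to 0.400% in WT IP and 0.280 to 0.289% in siTDP43 IP, 0.467 to 0.468% in WT IgG and 0.245 to 0.250% in siTDP43 IgG. These shares rest largely on 3 genes. In WT input replicate 1 XRCC6, PARP1 and XRCC5 held 38661, 16696 and 14300 of the 114540 counts of repair genes. In siTDP43 input replicate 1 they held 66921, 30356 and 28681 of 190203. Of the 6 markers of HEK293-like cells, VIM, NEFL and NEFM were measured in every group. In WT input INA, PAX2 and EYA1 had means of 0.200, 0.885 and 3.56 CPM. INA and EYA1 were at 0 in both IgG groups, and PAX2 in siTDP43 IP and siTDP43 IgG. Markers of keratinocytes summed to at most 0.577 CPM in any library and those of fibroblasts to at most 15.3 CPM. The highest sums were 21.3 CPM for hepatocytes, in siTDP43 IgG, and 41.9 CPM for leukocytes.

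TARDBP was measured first, as the target of the knockdown. Its levels in the inputs were 150.2, 158 and 152 CPM in WT and 99.1, 102 and 106 CPM in siTDP43, with no overlap. The log2 change was -0.57 ± 0.05 (log2 changes are given ± SE of the fit throughout; edgeR adjusted p = 6.55e-13), which left 67.2% of the WT level, and the exact two-sided permutation test gave p = 0.1, the smallest that 3 libraries against 3 allow. The sense strands of the siRNAs are shown because their targets set which transcript was meant to fall. Their capitals mark the bases found in TARDBP, at chr1:11073948-11073966 and chr1:11078873-11078891 (hg19, plus strand), both in coding exons. The first of them was also found in full at chr2:239140685-239140703, in LOC643387.
siTDP43 siRNA 1, sense: GGCUGGUAGAAGGAAUUCU
siTDP43 siRNA 2, sense: GUCACAGCGACAUAUGAUA

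Levels between genes were compared per kilobase of exon. In WT input XRCC6 was highest at 615 ± 12.1 CPM per kb (SD, n = 3), followed by XRCC5 at 142.4 ± 3.78 and PARP1, the sensor of strand breaks, at 141 ± 2.09, which do not differ beyond their spread. RAD51C, of homologous recombination, stood next at 80.8 ± 0.653. At the low end were BRCA2 at 0.517 ± 0.0442, ERCC6 at 0.391 ± 0.0518, FANCF at 0.198 ± 0.0545 and ERCC5 at 0.133 ± 0.0567 CPM per kb. In siTDP43 input the same genes led, with XRCC6 at 992 ± 3.54, XRCC5 at 271 ± 5.14, PARP1 at 237 ± 4.39 and RAD51C at 97.3 ± 5.06 CPM per kb. ERCC5, which cuts beside a lesion in excision repair, had 24, 19 and 12 counts in WT input and 0 in every IP and IgG library. Of its exon bases, 87.4% also belong to the readthrough gene BIVM-ERCC5 on the same strand, so its value is uncertain.

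The first comparison asked how mRNA levels of the repair genes differed between the inputs. Most of them were higher in siTDP43: 29 of 46 rose, 9 fell and 8 were not called (edgeR quasi-likelihood test, adjusted p under 0.05 over all genes). Of all 14036 genes tested, 38.6% were called higher and 40.6% lower. The median log2 change was 0.38 over the repair genes and -0.05 over all genes tested. All 46 passed the filter on low counts. Among the 35 without exon overlap with another gene, 22 rose and 7 fell. The other 11 are uncertain: ERCC5 and ERCC6 share exon bases with a gene on the same strand, and RAD54L, WRN, FANCA, FANCD2, FANCI, FANCL, MSH6, ERCC1 and ERCC2 with a gene on the opposite strand. In bulk RNA, fewer cells of a type and less RNA per cell cannot be told apart.

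End joining moved in both directions, with 5 of 8 genes higher, 2 lower and 1 not called. TP53BP1 (chromosome 15, 43699412 to 43802707, minus strand) had 9.99, 8.81 and 9.80 CPM in WT input and 47.1, 45.8 and 44.2 CPM in siTDP43 input. It rose 4.84-fold, a log2 change of 2.27 ± 0.08 (adjusted p = 1.65e-21), the highest of the repair genes. DCLRE1C, the Artemis nuclease, had 9.26, 8.96 and 9.12 CPM in WT and 28.4, 24.9 and 29.0 CPM in siTDP43, a log2 change of 1.60 ± 0.09 (adjusted p = 5.63e-16). The siTDP43 libraries of both genes lay above all WT libraries.

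Both Ku subunits rose and their kinase fell. XRCC5 went from 474, 490.4 and 500.0 CPM in WT to 909, 936 and 942 CPM in siTDP43, a log2 change of 0.94 ± 0.04 (adjusted p = 1.69e-20). XRCC6 went from 1282, 1321 and 1332 to 2121, 2120.3 and 2107 CPM, a log2 change of 0.70 ± 0.03 (adjusted p = 3.19e-18). PRKDC, the catalytic subunit of the DNA-dependent kinase, had 218, 221 and 219 CPM in WT and 89.6, 80.4 and 87.8 CPM in siTDP43, a log2 change of -1.34 ± 0.04 (adjusted p = 2.65e-22) and the lowest among the repair genes. None of the 3 genes had overlapping groups.

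The ligation step showed lower LIG4 beside an XRCC4 that was not called. LIG4, the ligase, had 3.32, 4.50 and 3.83 CPM in WT and 1.74, 1.97 and 2.14 CPM in siTDP43, a log2 change of -0.99 ± 0.22 (adjusted p = 0.000164). XRCC4, its partner, had 16.4, 17.6 and 17.1 CPM in WT and 15.1, 18.98 and 17.9 CPM in siTDP43, groups that overlapped, with a log2 change of 0.03 ± 0.10 (adjusted p = 0.784). NHEJ1, the XLF factor, had 33.6, 35.8 and 37.5 CPM in WT and 43.3, 44.6 and 43.6 CPM in siTDP43, a log2 change of 0.31 ± 0.07 (adjusted p = 0.000106). The plot of end-joining levels shows each of these genes in every library.

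**Figure D1:**
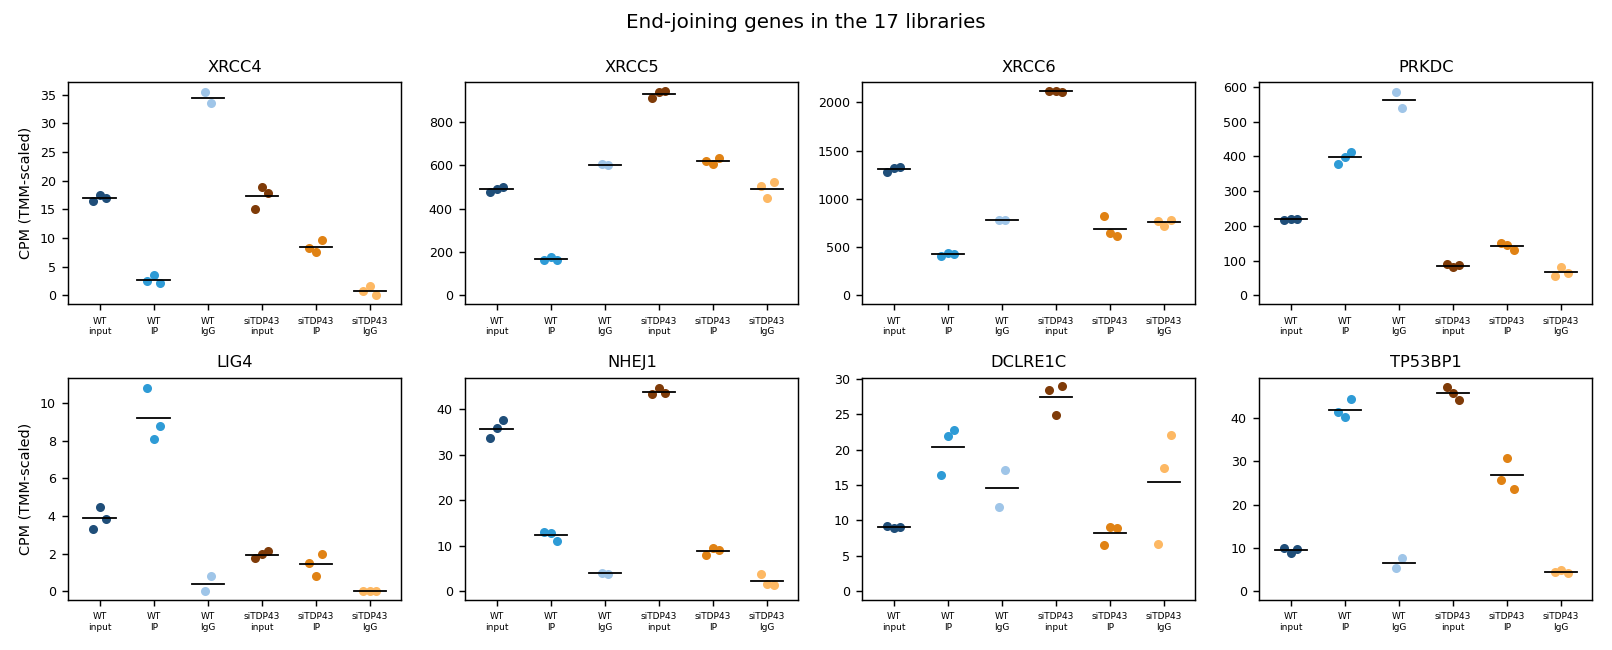
Levels of the 8 end-joining genes in the 17 libraries, in TMM-scaled CPM on linear axes. Points are libraries and lines are group means, and LIG4 stands at 0 in the 3 siTDP43 IgG libraries while XRCC4 is at 33.6 to 35.4 CPM in WT IgG and at most 1.62 CPM in siTDP43 IgG.

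In mismatch repair both genes rose. MSH6, which recognises mispaired bases, had 42.6, 48.5 and 50.04 CPM in WT input and 181, 179.9 and 192 CPM in siTDP43 input, a log2 change of 1.98 ± 0.05 (adjusted p = 1.32e-24). PMS2, its downstream endonuclease, changed by 0.45 ± 0.11 (adjusted p = 0.000419). Of the MRN complex NBN went from 20.4, 20.6 and 22.0 CPM to 67.5, 71.7 and 70.6 CPM, a log2 change of 1.74 ± 0.06 (adjusted p = 3.65e-21), RAD50 rose by 0.30 on the log2 scale and MRE11A, the nuclease, was not called at 0.09 ± 0.07. All 3 siTDP43 libraries of MSH6 and NBN stood above all WT libraries.

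Damage kinases were split. CHEK2 rose by 1.27 ± 0.05 and ATR by 0.27 ± 0.11 on the log2 scale, while ATM fell by 0.57 ± 0.11 and CHEK1 fell by 0.16 ± 0.05. In single-strand break repair PARP1 rose by 0.75 ± 0.04 and the ligase LIG3 by 0.90 ± 0.07, while their scaffold XRCC1 fell by 0.60 ± 0.06. Both RecQ helicases rose, WRN by 1.15 and BLM by 0.68 on the log2 scale. Of the 38 calls in the inputs 35 were kept in every alternative setting, and those of ATR, FANCE and ERCC2 were not. ATR kept its call in 7 of 12 alternative settings, with log2 values of 0.18 to 0.31 over all of them. It lost the call under total count scaling, when genes needed a mean of at least 50 counts, and without WT input replicate 2 or 3 or siTDP43 input replicate 2. FANCE kept its call in 7 of 12, with values of -0.52 to -0.20 over all of them, and its libraries overlapped between the inputs. It lost the call in the rest, among them those without WT input replicate 1 or 2 or siTDP43 input replicate 1 or 2. ERCC2 kept its call in 6 of 12, with values of 0.12 to 0.27 over all of them. It lost the call in the rest, among them those without WT input replicate 1 or 3 or siTDP43 input replicate 1 or 2.

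Of the homologous recombination genes 5 rose, 1 fell and 3 were not called. BARD1, the partner of BRCA1, rose by 1.01 ± 0.12, PALB2, which links BRCA1 to BRCA2, by 1.003 ± 0.10, and XRCC2 by 0.92 ± 0.07 on the log2 scale. BRCA1 itself was at -0.10 ± 0.07 and BRCA2 at 0.15 ± 0.16, neither called. XRCC3, the partner of RAD51C, was the exception that fell, from 53.2, 50.5 and 48.5 CPM to 27.1, 28.8 and 24.7 CPM, a log2 change of -0.91 ± 0.07 (adjusted p = 4.43e-13).

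Of the Fanconi genes 6 rose, 2 fell and FANCM was not called. The pair FANCD2 and FANCI, which is loaded together onto crosslinked DNA, rose by 1.41 ± 0.06 and 1.43 ± 0.04 on the log2 scale. FANCF showed a larger log2 change, 2.26 ± 0.30, at 0.597, 0.511 and 0.857 CPM in WT and 2.79, 2.998 and 3.63 CPM in siTDP43. In nucleotide excision repair the helicase ERCC3 rose by 1.60 ± 0.05 and ERCC6, of the transcription-coupled branch, by 1.63 ± 0.17. ERCC1, the partner of the nuclease ERCC4, went from 79.6, 84.4 and 77.7 CPM to 42.9, 40.4 and 40.4 CPM, a log2 change of -0.96 ± 0.06 (adjusted p = 5.78e-16). On the opposite strand, 41.9% of its exon bases overlap CD3EAP, and 9.08% of those of FANCI overlap POLG, so both values are uncertain without strand information.

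**Figure D2:**
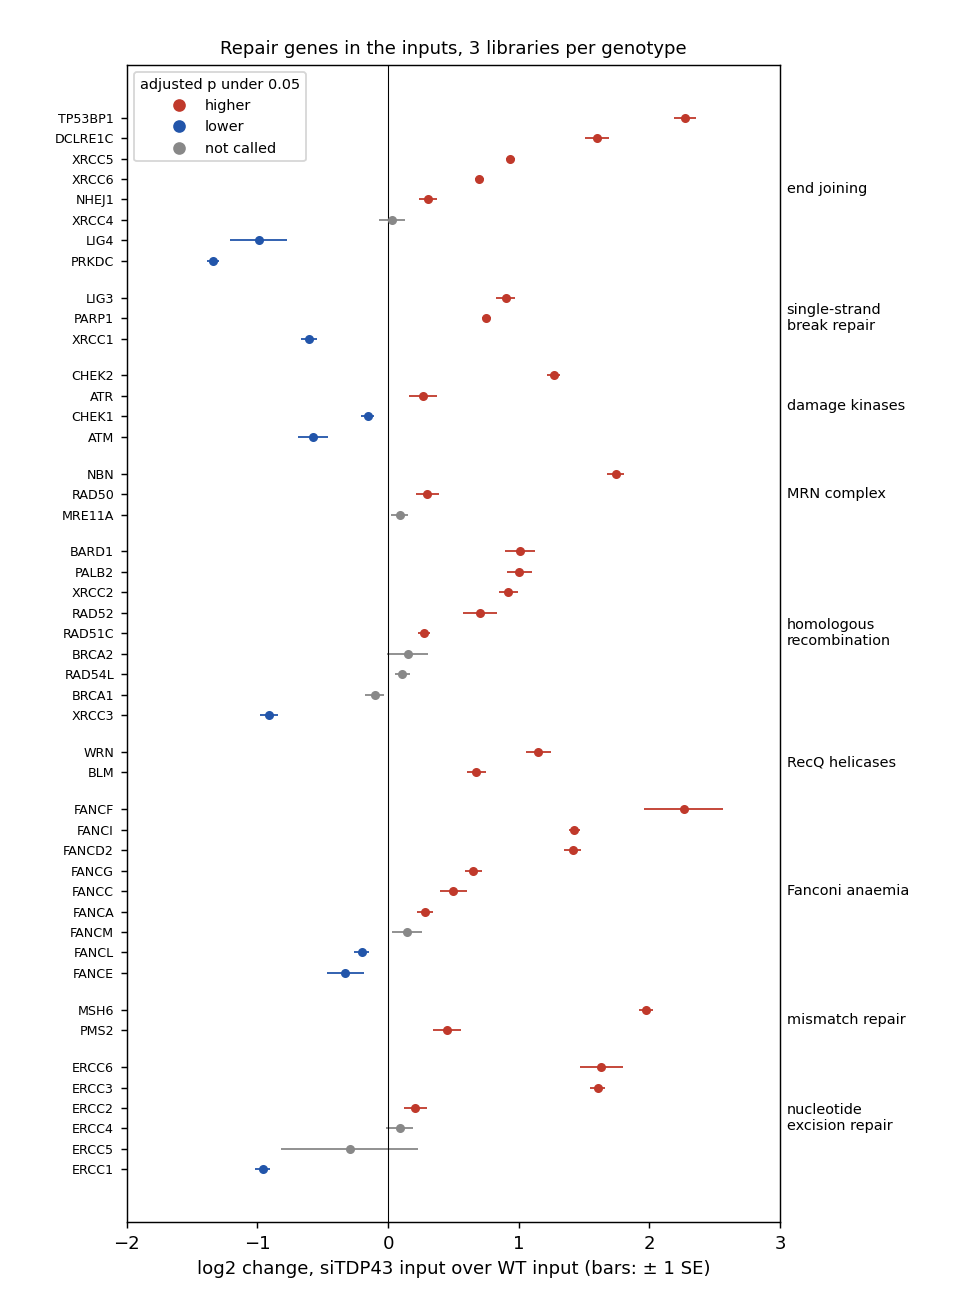
Log2 change of each of the 46 repair genes between siTDP43 input and WT input, by role, with bars of 1 SE from the edgeR fit on 3 libraries per genotype. Red genes were called higher, blue genes lower and grey genes not called, and the values run from -1.34 for PRKDC to 2.27 for TP53BP1.

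Other lists give the surroundings of this shift. Among 96 further repair genes 49 of 95 tested rose and 31 fell, with a median log2 change of 0.37. TDG, a thymine glycosylase, rose by 2.41 on the log2 scale, while the histone gene H2AFX fell by 3.66. Of 21 targets of p53, 16 rose and 4 fell, with MDM2 at 1.96 and BBC3 at -3.31. Of 21 G1/S genes 12 rose and 8 fell, and of 16 G2/M genes 9 rose and 5 fell.

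Interferon-induced genes differed far more between the same inputs. Of 16 tested, 15 were lower in siTDP43 and 1 was higher, with a median log2 change of -5.46. The summed level of the 21 listed genes was 1843 to 1862 CPM in WT input and 98.3 to 102 CPM in siTDP43 input, and among the genes listed IFIT1, an RNA-binding antiviral protein, fell from a mean of 652 to 16.4 CPM. Of the HEK293-like markers 3 of 5 tested were higher in siTDP43 and 2 lower, with a median log2 change of 1.20. Their sum was 907 to 943 CPM in WT input and 483 to 514 CPM in siTDP43 input, in which VIM went from a mean of 790.2 to 263 CPM and NEFL from 65.4 to 186 CPM. The part of these differences in the changes of the repair genes was not tested.

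The second comparison asked which repair mRNAs the antibody enriched in WT cells. Against input, 11 of 46 were higher in IP, 12 lower and 23 not called (more than 2-fold, at an adjusted p below 0.05). Over all genes tested 30.2% were higher and 27.3% lower. The median log2 change of IP over input was -0.32 for the repair genes and 0.01 for all genes. The genes above input were RAD50, BRCA2, BRCA1, TP53BP1, FANCE, ATM, FANCD2, XRCC2, LIG4, DCLRE1C and BARD1. ERCC5 passed the low-count filter here only through input and is among the 12 lower genes, and BARD1 lost its call without WT IP replicate 1 at 0.996.

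RAD50, the long coiled-coil subunit of the MRN complex, stood highest. It had 16.1, 18.4 and 18.5 CPM in WT input, 153, 167 and 166 CPM in IP and 35.9 and 32.5 CPM in IgG. The log2 change was 3.20 ± 0.07 (adjusted p = 1.09e-21) over input and 2.20 ± 0.09 (adjusted p = 2.48e-16) over IgG. IP libraries of RAD50 were above all input and IgG libraries.

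Both BRCA genes were enriched over input but parted over IgG. BRCA1 had 36.4, 36.4 and 38.8 CPM in WT input, 173, 185 and 188 CPM in IP and 81.1 and 78.8 CPM in IgG, so that its log2 change over input was 2.30 ± 0.06 and that over IgG 1.15 ± 0.07 (adjusted p = 1.69e-20 and 5.99e-13). BRCA2, a mediator of strand exchange, had 5.31, 6.16 and 6.20 CPM in input, 44.7, 42.2 and 43.7 CPM in IP and 53.2 and 47.5 CPM in IgG. Its log2 change was 2.89 ± 0.10 (adjusted p = 2.83e-18) over input but -0.25 ± 0.10 over IgG, where it was not called and both IgG libraries lay above the IP libraries.

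Among genes with a mean of at least 100 counts, which leaves out ERCC5, the other end of the order held FANCL, FANCM and XRCC4. FANCL, the ubiquitin ligase of the Fanconi pathway, fell from 55.4, 49.6 and 52.2 CPM in input to 4.97, 5.98 and 3.95 CPM in IP, a log2 change of -3.38 ± 0.12 (adjusted p = 4.61e-18). On the opposite strand 26.1% of its exon bases overlap VRK2. FANCM, a translocase that reaches stalled forks, went from 10.3, 10.3 and 9.63 CPM to 1.28, 1.39 and 1.91 CPM, a log2 change of -2.72 ± 0.20 (adjusted p = 7.26e-12). XRCC4 had 2.48, 3.60 and 2.22 CPM in IP, a log2 change of -2.60 ± 0.15 (adjusted p = 8.77e-14) against input.

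Against IgG the order of the genes was different. In IP 15 of 46 were above IgG and 10 below, where 35.2% of all genes were above and 17.8% below, and the medians of the log2 change were -0.14 and 0.29. Over IgG LIG4 had a log2 change of 4.49 ± 0.47 (adjusted p = 7.79e-09), with 10.8, 8.11 and 8.78 CPM in IP and 0 and 0.809 CPM in IgG, the latter from 0 and 8 counts. FANCC, of the Fanconi core complex, had 16.6, 16.4 and 17.7 CPM in IP and 0.577 and 1.01 CPM in IgG, a log2 change of 4.37 ± 0.26 (adjusted p = 3.22e-13). LIG3 had 11.9, 14.3 and 16.1 CPM in IP and 0.577 and 1.92 CPM in IgG, a log2 change of 3.47 ± 0.28 (adjusted p = 9.46e-11).

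Neither FANCC nor LIG3 was above input in IP, with log2 changes of 0.15 ± 0.12 and -0.81 ± 0.13. The genes furthest below IgG were XRCC4 at -3.67 ± 0.17, FANCM at -2.501 ± 0.24 and XRCC5 at -1.88 ± 0.05 on the log2 scale. XRCC5 had 165, 175 and 164 CPM in IP and 604 and 599.6 CPM in IgG. FANCF had 0 counts in both IgG libraries and was at least 2.47-fold higher in IP, and ERCC6 had 2 and 0 counts in IgG, a ratio of IP to IgG of 35.5 with an exact 95% counting interval of 9.73 to 295.

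The control pull-down was compared with input as well. In WT 9 of 46 were higher in IgG than in input and 14 lower, against 24.4% and 36.6% of all genes. Without ERCC5 and FANCF, which had 0 counts in WT IgG, 9 of 44 were higher and 12 lower. BRCA2 stood highest with a log2 change of 3.14 ± 0.11 (adjusted p = 7.96e-18). ERCC4, the excision nuclease XPF, had 13.7, 12.2 and 13.2 CPM in input and 50.7 and 50.1 CPM in IgG, a log2 change of 2.00 ± 0.12 (adjusted p = 1.45e-13). WRN, mutated in Werner syndrome, had 11.4, 11.6 and 12.5 CPM in input and 37.7 and 42.1 CPM in IgG, a log2 change of 1.80 ± 0.12 (adjusted p = 1.24e-12).

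At the low side of IgG, leaving aside the rarely counted FANCF, ERCC5 and ERCC6, were LIG3 at -4.28 ± 0.27, FANCC at -4.22 ± 0.26 and LIG4 at -3.24 ± 0.52. In input LIG3 had 26.3, 24.6 and 23.7 CPM and FANCC had 16.1, 14.3 and 15.7 CPM. LIG3, FANCC and LIG4 were named above for a high ratio of IP to IgG, and both ratios use the same IgG libraries. The median log2 change of IgG over input was -0.02 for the repair genes and -0.39 for all genes.

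Taking IP above both input and IgG as ac4C(+), 5 of the 46 repair genes qualified in WT cells, where 15.6% of all genes tested did. They were TP53BP1, LIG4, RAD50, BRCA1 and FANCE. FANCE, which bridges the Fanconi core complex to FANCD2, had 10.9, 10.8 and 8.92 CPM in input, 44.7, 40.1 and 39.2 CPM in IP and 5.77 and 4.65 CPM in IgG, with log2 changes of 2.03 ± 0.11 and 2.94 ± 0.16. TP53BP1 had 41.4, 40.3 and 44.3 CPM in IP and 5.38 and 7.69 CPM in IgG, or 2.15 ± 0.11 against input and 2.65 ± 0.16 against IgG on the log2 scale. With a fold change over IgG above 5, TP53BP1, LIG4 and FANCE remained.

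TCCCAGCT, in DNA letters, is a motif the study drew from acRIP peaks of these cells, so the repair genes are no independent evidence for it, and it was searched here as a description. The sense strand of the exons held it in 10 of 46 repair genes (21.7%) and in 16.8% of 22811 genes. Of the ac4C(+) genes only TP53BP1 and BRCA1 held it, and RAD50, LIG4 and FANCE did not. The stretch of TP53BP1 is shown as the ac4C(+) end-joining gene that holds the motif in a coding exon, on the gene's minus strand at chr15:43701882-43701907 (hg19), with the motif in capitals.
TP53BP1: tatacagaaTCCCAGCTtcgagcagg

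Of the 10 repair genes with the motif 4 were above input in WT IP and 0 below, and of the 36 without it 7 were above and 12 below. Over all genes with the motif 1121 of 2881 were above input and 491 below, and without it 3289 of 11716 and 3504. Against IgG 4 of the 10 genes with the motif were above and 4 below, and 11 and 6 of the 36 without it, while over all genes 1016 of 2881 with the motif were above and 4101 of 11716 without it. A match is a stretch of letters and not a mapped acetylated base. Genes with the motif were also longer, with a median exon length of 6097 bases against 3618 among the repair genes, and the part of length in this difference was not tested.

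Exon length went with the ratio of IP to input among the repair genes, but not with that of IP to IgG. Their median exon length was 4072 bases, against 2471 over all genes, and their exons held 44.2% GC, against 49.4%. Of the 23 longer genes 8 were above input in WT IP and 3 below, and of the 23 shorter genes 3 were above and 9 below. Spearman's rho between exon length and the log2 change of IP over input was 0.48 across the 46 genes and 0.20 across 14597 genes. IgG over input went with length too, with rho of 0.34 across the 46 genes and 0.20 across all. For IP over IgG rho was 0.09 across the 46 genes and -0.03 across all, with 7 of the longer genes above IgG and 5 below, and 8 and 5 of the shorter ones. With GC content, rho for IP over input was -0.07 across the 46 genes and 0.36 across 14597 genes. For IP over IgG rho with GC was 0.25 and 0.19. For the change between the inputs it was 0.03 across the 46 genes and -0.32 across 13895 genes. These genes share libraries and are no independent replicates.

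In siTDP43 cells enrichment over input was rare among the repair genes. In IP 1 of the 45 tested was above input and 17 were below, against 26.8% and 25.4% of all genes. The median log2 change was -0.71, against -0.09 over all genes. ERCC5, with 0 counts in IP and IgG, did not pass the filter. Scaling to total counts moved the median of all genes to -0.43 and gave 1 gene above and 23 below, and the share of higher genes among all calls went from 51.3 to 39.0%.

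FANCE was the gene above input, with 7.64, 6.47 and 10.1 CPM in siTDP43 input and 23.8, 27.7 and 23.9 CPM in IP, a log2 change of 1.79 ± 0.18 (adjusted p = 7.46e-09). PMS2 had 21.2, 20.4 and 17.5 CPM in input and 3.27, 2.03 and 0.996 CPM in IP, a log2 change of -2.99 ± 0.27 (adjusted p = 1.22e-09). FANCG, of the Fanconi core complex, went from 83.4, 74.2 and 69.9 to 11.7, 14.6 and 11.2 CPM, a log2 change of -2.44 ± 0.15 (adjusted p = 1.33e-12). LIG3 went from 48.3, 45.4 and 44.5 to 9.82, 8.52 and 6.72 CPM, a log2 change of -2.29 ± 0.16 (adjusted p = 1.23e-11). For these 4 genes the libraries of IP and input did not overlap.

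Against IgG 10 of 45 genes were higher in siTDP43 IP and 5 lower, against 34% and 15% of all genes, with medians of 0.26 and 0.33. The 10 higher genes included 5 of the 8 end-joining genes, TP53BP1, XRCC4, NHEJ1, PRKDC and LIG4. Of these, NHEJ1 had only 10, 4 and 4 counts in IgG, and PRKDC did not keep its call in every setting. Without LIG4, RAD52 and FANCF, which had 0 counts in IgG, 7 of 42 genes were higher. TP53BP1 had 25.8, 30.8 and 23.7 CPM in IP and 4.41, 4.86 and 4.27 CPM in IgG, a log2 change of 2.498 ± 0.23 (adjusted p = 3.78e-09). XRCC4 had 8.18, 7.503 and 9.71 CPM in IP and 2, 4 and 0 counts in IgG, a log2 change of 3.40 ± 0.52. RAD52 and LIG4 had 0 counts in all 3 IgG libraries, with 18, 50 and 10 counts of RAD52 and 20, 8 and 16 counts of LIG4 in IP, and LIG4 was at least 1.27-fold higher, a bound under the 2-fold limit.

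WRN had 9.22, 9.13 and 16.2 CPM in siTDP43 IP and 1.47, 1.62 and 0.712 CPM in IgG, a log2 change of 3.0997 ± 0.45 (adjusted p = 2.54e-06). On the low side PMS2 had 15.4, 12.9 and 13.5 CPM in IgG, a log2 change of -2.72 ± 0.32 (adjusted p = 1.34e-07) for IP against IgG. ATM had 8.78, 8.82 and 8.34 CPM in IP and 51.1, 38.8 and 39.2 CPM in IgG, a log2 change of -2.39 ± 0.20 (adjusted p = 7.82e-10). BRCA1 had 52.4, 47.9 and 59.5 CPM in IP and 112, 121 and 108 CPM in IgG, a log2 change of -1.16 ± 0.12 (adjusted p = 1.48e-08). The count of lower genes was not firm: it was 8 without siTDP43 IP replicate 3 or without siTDP43 IgG replicate 1, and 2 with 13 higher when libraries were scaled to total counts, where BRCA1 was no longer called. PRKDC kept its call in 9 of 15 settings, with values of 0.89 to 1.22 over all of them. It lost the call in the rest, among them those without siTDP43 IP replicate 1 or siTDP43 IgG replicate 1 or 3.

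No repair gene was ac4C(+) in siTDP43 cells: 0 of 45 had IP above both input and IgG by edgeR, and 0 by DESeq2. The number was also 0 at an unadjusted p under 0.05, but with the same fold limit this could add no gene. Only FANCE passed that limit over input, and it did not pass it over IgG. Of all genes tested 10.3% were ac4C(+). FANCE was above input but at -0.23 ± 0.20 on the log2 scale over IgG, with 30.9, 28.3 and 24.9 CPM there. TP53BP1 was above IgG but at -0.62 ± 0.13 over input.

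IgG over input in siTDP43 was higher for 4 of 45 genes and lower for 21, against 24.7% and 41% of all genes, with medians of -0.70 and -0.58. Without LIG4, RAD52 and FANCF, which had 0 counts in siTDP43 IgG, 4 of 42 genes were higher and 18 lower. ATM was highest with 8.68, 8.28 and 8.29 CPM in input, a log2 change of 2.58 ± 0.19 (adjusted p = 2.34e-11), followed by FANCE at 2.02 ± 0.20 and BRCA1 at 1.94 ± 0.12. RAD52 had 10.7, 13.1 and 12.5 CPM in input and was at least 10.7-fold lower in IgG. XRCC4 changed by -4.28 ± 0.47 and WRN by -4.15 ± 0.40. Scaling to total counts left 3 genes higher and 29 lower, and the share of higher genes among all calls went from 37.6 to 26.9%.

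The next comparison tested the difference between the genotypes itself, as an interaction over the 17 libraries. For IP over input it was negative for 29 of 46 genes (63.0%), meaning a lower ratio in siTDP43, and positive for 8 (17.4%), with 9 not called. Over all 15165 genes 36.3% were negative and 31.5% positive, and the medians were -1.08 for the repair genes and -0.19 for all genes. Among the 96 further repair genes 38 of 95 were negative and 35 positive, with a median of -0.03. The comparisons above share libraries with this one, so their values are given side by side.

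RAD50 had the lowest value. Its levels in siTDP43 were 20.5, 21.2 and 23.4 CPM in input and 18.6, 19.5 and 15.9 CPM in IP, a log2 change of -0.11 ± 0.15 where WT had 3.20, and the difference was -3.46 ± 0.15 (adjusted p = 6.17e-22). DCLRE1C had 16.4, 22.0 and 22.8 CPM in WT IP and 6.55, 9.13 and 8.96 CPM in siTDP43 IP, and its log2 change over input was 1.17 in WT and -1.60 in siTDP43, a difference of -2.92 ± 0.27 (adjusted p = 7.79e-12). Its input was higher in siTDP43, at 28.4, 24.9 and 29.0 CPM against 9.26, 8.96 and 9.12 CPM in WT. Over IgG its log2 change was 0.45 in WT and -0.99 in siTDP43, called in neither. DCLRE1C was the only repair gene called in opposite directions over input, and such calls were not counted over all genes.

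TP53BP1 changed from 2.15 in WT to -0.62 in siTDP43, a difference of -2.91 ± 0.17 (adjusted p = 3.35e-17). Its siTDP43 input, at 47.1, 45.8 and 44.2 CPM, was above its WT input. For BRCA2 the log2 change of IP over input was 2.89 in WT and 0.45 in siTDP43, where it had 7.67, 5.33 and 6.48 CPM in input and 6.10, 9.33 and 8.59 CPM in IP, a difference of -2.61 ± 0.28 (adjusted p = 2.07e-10). Of the homologous recombination genes 6 of 9 were negative and RAD51C was positive at 1.51 ± 0.11. FANCE was not called, at -0.38 ± 0.21.

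The positive differences were led by FANCM, FANCL and XRCC4, which also stood lowest in IP over input in WT above the same count limit, and both use the same WT libraries. FANCM had 10.2, 12.03 and 11.1 CPM in siTDP43 input and 11.8, 8.62 and 11.1 CPM in IP, and its difference was 2.64 ± 0.30 (adjusted p = 9.27e-10). FANCL had 45.4, 44.3 and 45.8 CPM in siTDP43 input and 15.0, 17.1 and 19.1 CPM in IP, a difference of 1.98 ± 0.20 (adjusted p = 7.59e-11). For XRCC4 it was 1.57 ± 0.27 (adjusted p = 3.55e-06), with 8.18, 7.503 and 9.71 CPM in siTDP43 IP. The other positive genes were RAD51C, CHEK1, XRCC5, XRCC1 and ERCC1, of which ERCC1 lost its call without siTDP43 IP replicate 1 and, with XRCC1, under scaling to total counts.

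**Figure D3:**
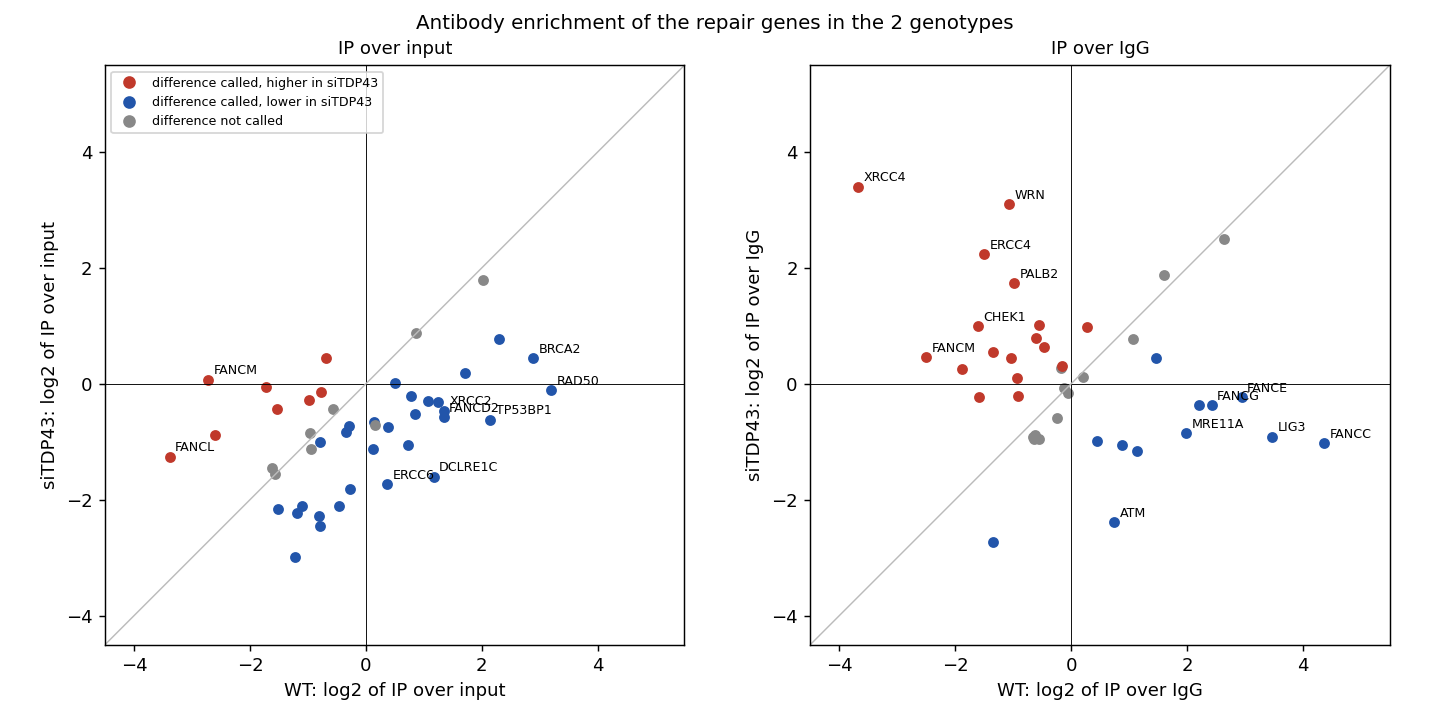
Log2 change of IP over input (left) and of IP over IgG (right) for the repair genes, WT on the horizontal axis and siTDP43 on the vertical axis, with the line of equal values in grey. Colours give the edgeR test of the difference between genotypes, ERCC5 is left out of both panels and LIG4, RAD52, FANCF and ERCC6, with 0 or 2 counts in an IgG group, of the right one; over input most points lie below the line, while over IgG they lie on both sides.

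For IP over IgG the differences went both ways. It was positive for 17 of 46 genes and negative for 13, against 34.9% and 25.9% of all genes, with medians of 0.05 and 0.24. Scaling shifted both medians together: with DESeq2 size factors they were -0.06 and 0.03, and with DESeq2 itself -0.27 and -0.13. The median of the repair genes was -0.05 with genes at 0 set to their bounds. XRCC4 had -3.67 in WT and 3.40 in siTDP43, a difference of 7.13 ± 0.46 (adjusted p = 3.45e-16) that rests on 2, 4 and 0 counts in siTDP43 IgG. WRN had a difference of 4.22 ± 0.43 (adjusted p = 5.78e-11) and ERCC4 of 3.81 ± 0.36 (adjusted p = 8.33e-12). In siTDP43 IgG they rest on 4, 4 and 2 counts of WRN and 6, 10 and 4 counts of ERCC4. ERCC4 had 16.6, 21.1 and 17.1 CPM in WT IP, 12.6, 15.5 and 9.21 CPM in siTDP43 IP and 2.21, 4.05 and 1.42 CPM in siTDP43 IgG.

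For those 3 genes the mean level moved by a larger factor between genotypes in IgG than in IP. WRN had 17.97, 20.4 and 20.2 CPM in WT IP and 9.22, 9.13 and 16.2 CPM in siTDP43 IP. The same held at the negative end: FANCC, with 9.82, 11.7 and 15.8 CPM in siTDP43 IP and 19.1, 25.1 and 27.1 CPM in siTDP43 IgG, had a difference of -5.35 ± 0.39 (adjusted p = 1.12e-14). LIG3, with 16.2, 16.6 and 12.8 CPM in siTDP43 IgG, had one of -4.32 ± 0.38 (adjusted p = 1.49e-12). FANCE had one of -3.12 ± 0.27 (adjusted p = 1.45e-12). In WT IgG FANCC had 6 and 10 counts and LIG3 had 6 and 19.

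Called in opposite directions over IgG in the 2 genotypes were 5 genes. XRCC4, WRN and ERCC4 were below IgG in WT and above it in siTDP43. BRCA1 and FANCC were above IgG in WT and below it in siTDP43. Opposite calls were not counted over all genes, so whether this number is particular to the repair genes was not tested. Some calls of the 5 genes stood near the fold limit. FANCC kept its lower call in siTDP43 in 10 of 15 settings, with log2 values of -1.24 to -0.81 over all of them. It lost the call in the rest, among them those without siTDP43 IP replicate 1 or 2 or siTDP43 IgG replicate 2 or 3. WRN kept its lower call in WT in 12 of 14 settings, with -1.16 to -0.94 over all of them. It lost the call in the rest, among them the one without WT IgG replicate 2. BRCA1 had a difference of -2.26 ± 0.14 (adjusted p = 5.89e-17). For TP53BP1 the difference over IgG was -0.09 ± 0.33 and not called. Of the end-joining genes 4 were positive, XRCC4, XRCC5, PRKDC and XRCC6, and DCLRE1C was negative. WRN shares 7.9% of its exon bases with PURG on the opposite strand.

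**Figure D4:**
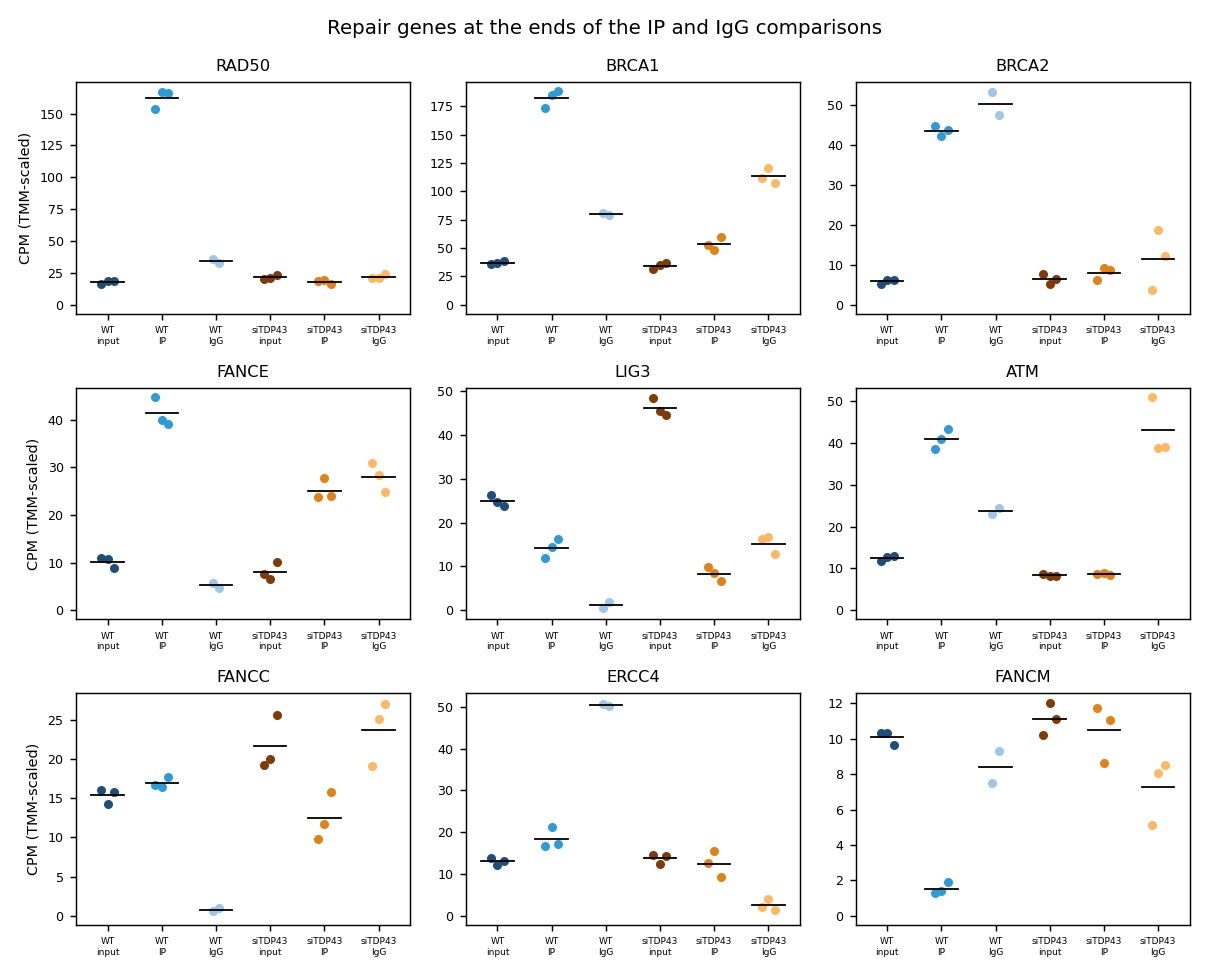
Levels in the 17 libraries, in TMM-scaled CPM on linear axes, of 9 repair genes that ranked at the ends of the IP and IgG comparisons. Points are libraries and lines are group means; RAD50 is at 153 to 167 CPM in WT IP and at most 35.9 CPM elsewhere, while FANCC is at 0.577 to 1.01 CPM in WT IgG and 19.1 to 27.1 CPM in siTDP43 IgG.

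UG repeats, the letters TDP43 is known to bind, were counted as TGTGTG. It was searched on the sense strand and found in the exons of 34 of 46 (73.9%) and of 58.1% of all genes, and their exons were longer. Per kilobase of gene body it occurred at a median of 0.654 in the repair genes and 0.646 in all genes. Its density in the gene body was set against the change of IP over input between genotypes, as a description with no test. Spearman's rho was -0.06 across the 46 genes and -0.07 across 15004 genes. For exon length rho with the same change was -0.31 and -0.25. Of the 23 longer repair genes 17 were negative and 2 positive, and of the 23 shorter genes 12 were negative and 6 positive. The part of length in this change was not tested.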

How the data were processed

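HEK293T poly(A) RNA was profiled by acRIP-seq. Per the study's methods and the submitters' processing notes, reads were trimmed (Trim Galore 0.6.7), aligned (STAR 2.7.10a) and counted per gene (featureCounts 2.0.2), and libraries were amplified with a Smart-seq2 protocol. The deposited table holds raw counts by the authors for 17 libraries and 23368 genes, with 0 columns left unused. The methods name hg19 and the table's coordinates are human, while the labels name a mouse build. The annotation release, strand and pair settings are not given in the sources used here. Even numbers made up 81.3 to 95.9% of counts of 1 to 20 in each library, so 1 count need not be 1 fragment. Intervals and floors take each count as independent, so they can be too narrow, and they cover no error beyond counting.

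Counts were tested with edgeR 4.0.16 (R 4.3.3, limma 3.58.1): TMM, filterByExpr with a minimum count of 10, and the two-sided quasi-likelihood F test, fitted on all genes of the groups compared, with Benjamini-Hochberg adjustment over all genes tested in that comparison. A call needed adjusted p under 0.05 and, within a genotype, a fold change above 2. An ac4C(+) gene had IP above input and above IgG. A group with 0 counts in every library was set to 3 counts per library for a bound, and ratios with 1 to 3 counts were given with an exact interval. Alternatives were DESeq2 1.42.0, its size factors, total count scaling, other low-count filters, a replicate block, a stricter fold over IgG and leaving out each library. The scripts were tested on simulated data.

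The repair genes and the other lists were chosen with earlier results of these data known. Named genes were the 8 end-joining genes and, in each comparison, the 3 highest and 3 lowest called with a mean of at least 100 counts. Other genes are named by role, and of the other lists the highest and lowest called, of which some are not reported here. No replicate pair within a group differed by as little as sampling noise (chi-square per degree of freedom 3.26 to 9.43). Sequences and exon positions came from the GRCh37 (hg19) reference and the siRNA strands from the study's supplement.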

Additional observations from a re-analysis of the deposited data

Results flagged for a closer look

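The change of IP over input between the genotypes, tested as an interaction, was called for 37 of the 46 repair genes. It was lower in siTDP43 for 63.0% of them and higher for 17.4%, against 36.3% and 31.5% of all 15165 genes. On the log2 scale it was 2.64 for FANCM, 1.98 for FANCL and 1.57 for XRCC4, and -3.46 for RAD50, -2.92 for DCLRE1C and -2.91 for TP53BP1.

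The change of IP over IgG between the genotypes was called for 30 of the 46 in the same kind of test. It was 7.13 for XRCC4, 4.22 for WRN and 3.81 for ERCC4. It was -5.35 for FANCC, -4.32 for LIG3, -3.12 for FANCE and -2.26 for BRCA1. XRCC4, WRN and ERCC4 had at most 10 counts in any siTDP43 IgG library, and FANCC and LIG3 at most 19 in any WT IgG library. No group held over 3 libraries, so single libraries that stand far from their group could not be looked for.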

How the results depend on the processing

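Of 21 counts of repair genes, each kept within 1.5 times its value under DESeq2, DESeq2 size factors, both other low-count filters and the replicate block. Genes lower in siTDP43 IP than in IgG numbered 5 in the main test and 2 under total count scaling, and 4 to 8 when a library was left out. With a fold change over IgG above 5, ac4C(+) genes in WT were 3 instead of 5. XRCC4, not called in the inputs, was at -0.0608 under total count scaling, at -0.0174 when genes needed 50 counts on average, and at -0.0422 without siTDP43 input replicate 2 to 0.1294 without replicate 1. Over all genes, the median difference between genotypes of IP over input was -0.19, or -0.48 when scaled to total counts. Leaving out a WT IgG library leaves 1, assumed to vary like the others. Same-numbered libraries deviated together with correlations of -0.039 to 0.0909, so the numbers were not taken as pairs, and the replicate block gave 11 genes higher in WT IgG than in input, against 9. Genes with few IgG counts in a genotype, such as LIG4, RAD52, FANCF, ERCC6, XRCC4, NHEJ1, WRN, ERCC4, FANCC and LIG3, are limited by depth.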
